A study of Mus musculus with 4 samples.

Results

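Heat shock chaperones were examined as a gene module in E14 mouse embryonic stem cells with and without Npac. The members were the protein-coding genes whose symbols belong to the Hsp70 (Hspa), Hsp110, Hsp90 (Hsp90a), small heat shock protein (Hspb), Hsp60 and Hsp10 (Hspd1 and Hspe1), J protein (Dnaja, Dnajb and Dnajc) and CCT (Cct and Tcp1) families, together with Hsf1 and Hsf2, leaving out Hspa5. This rule found 80 of the 56748 genes listed. The choice used names and not expression values. The module was labelled cytosolic and mitochondrial, but the rule also brought in genes whose products work in the endoplasmic reticulum, among them 10 J proteins, and these are described apart.

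RNA-seq was performed on 2 libraries of WT cells (WT1 and WT2) and 2 libraries of Npac knockout cells (KO1 and KO2). E14 is a feeder-free mouse ES cell line, kept in serum and leukemia inhibitory factor, and the knockout was made with CRISPR/Cas9. The study treats KO1 and KO2 as 2 cell lines, so each line has 1 library, and no source used here says whether WT1 and WT2 were separate cultures. The p-values therefore measure the spread between these libraries, which may be partly technical.

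Chaperones bind unfolded or partly folded proteins. Hsp70 proteins cycle between ATP and ADP states, J proteins bring them substrates and stimulate the ATPase, and Hsp110 proteins act as nucleotide exchange factors. Hsp90 works on late folding states such as kinases and steroid receptors, Hsp60 with its lid Hsp10 folds proteins inside the mitochondrial matrix, and the CCT ring folds actin and tubulin in the cytosol. Small heat shock proteins hold aggregating clients without ATP. Heat shock factor 1 (Hsf1) activates many of these genes during proteotoxic stress, through repeats of a short element in their promoters. Mouse ES cells are known for a high basal level of many chaperones.

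The total count lay between 15850805 and 16965120 reads per library, and 3 reads correspond to 0.177 to 0.189 CPM (counts scaled to library size). Npac itself, listed as Glyr1, had 3961 and 3115 reads in WT1 and WT2, and 744 and 888 reads in KO1 and KO2, and was down-regulated in Npac KO cells. All 10 mES cell markers passed the filter on low counts, with a summed level of 7988 and 6313 CPM in WT cells and 5485 and 5188 CPM in Npac KO cells. Of these 10 markers, 1 was up-regulated and 2 were down-regulated, against 11.0% and 10.7% of all genes. These were Klf2 (log2 fold change 0.97), and Zfp42 (-2.64) and Tfcp2l1 (-1.24). Both KO libraries lay above both WT libraries for 3 markers and below both for 6, against 33.2% and 32.5% of all genes. The 7 primitive endoderm markers summed to between 20.4 and 32.5 CPM, and the 7 fibroblast markers to between 41.1 and 76.1 CPM, with Col3a1 and Dcn at 0 reads in every library. Of the 6 tested primitive endoderm markers, 0 were up-regulated and 1 was down-regulated, Sox7 (273, 162, 4 and 16 reads in WT1, WT2, KO1 and KO2). Of the 4 tested fibroblast markers, 1 was up-regulated, Col1a1 (85, 168, 285 and 326 reads), and 0 were down-regulated. The shares over all genes were 11.0% up-regulated and 10.7% down-regulated. Col1a2 (3, 5, 18 and 16 reads) did not pass the test, and Thy1 lay between 25.5 and 49.1 CPM. In bulk RNA, fewer cells of a type and less RNA per cell cannot be told apart, and the part of the lower ES cell marker level in the results was not tested. Genes on chromosomes 8 and 11 were higher as a group in both KO libraries, with median log2 differences from WT of 0.49 to 0.53, against -0.20 to -0.003 on the other chromosomes. The 6 tested members on these chromosomes are Cct4, Cct6b, Dnaja2, Dnajb1, Dnajc7 and Hspa4.

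Of the 80 members, 75 passed the filter and were tested. The other 5 were at very low counts in all libraries. Dnajb8 had 0 reads throughout. Dnajb7 had 3, 0, 2 and 6 reads in WT1, WT2, KO1 and KO2, Hspb3 had 0, 4, 3 and 2, Hspb9 had 2, 1, 4 and 4, and Hspa1l had 16, 8, 6 and 6.

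Among the 75 tested members, 9 were up-regulated and 9 were down-regulated in Npac KO cells, with thresholds of 0.05 on the adjusted p and 1.5 on the fold change. That is 12% in each direction, close to the share over all 18157 genes tested, of which 11.0% were up-regulated and 10.7% were down-regulated. Both KO libraries lay above both WT libraries for 23 members (30.7%, against 33.2% of all genes) and below both for 24 members (32.0%, against 32.5% of all genes). The median log2 fold change was -0.14 over the members and 0.0015 over all genes tested. The up-regulated members were Hspa8, Cct3, Cct4, Dnajc2, Dnaja2, Cct7, Hspd1, Dnajb6 and Cct2. The down-regulated members were Hspb6, Hspb2, Dnajb9, Dnajb4, Hspa12a, Dnajc1, Hspa9, Dnajc3 and Hspa14. The direction of each of these 18 members was the same under every alternative tried, but the fits without KO1 and without KO2 each lost 14 of the 18 calls and left those of Hspa8, Cct3, Cct4 and Hspb6.

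**Figure D1:**
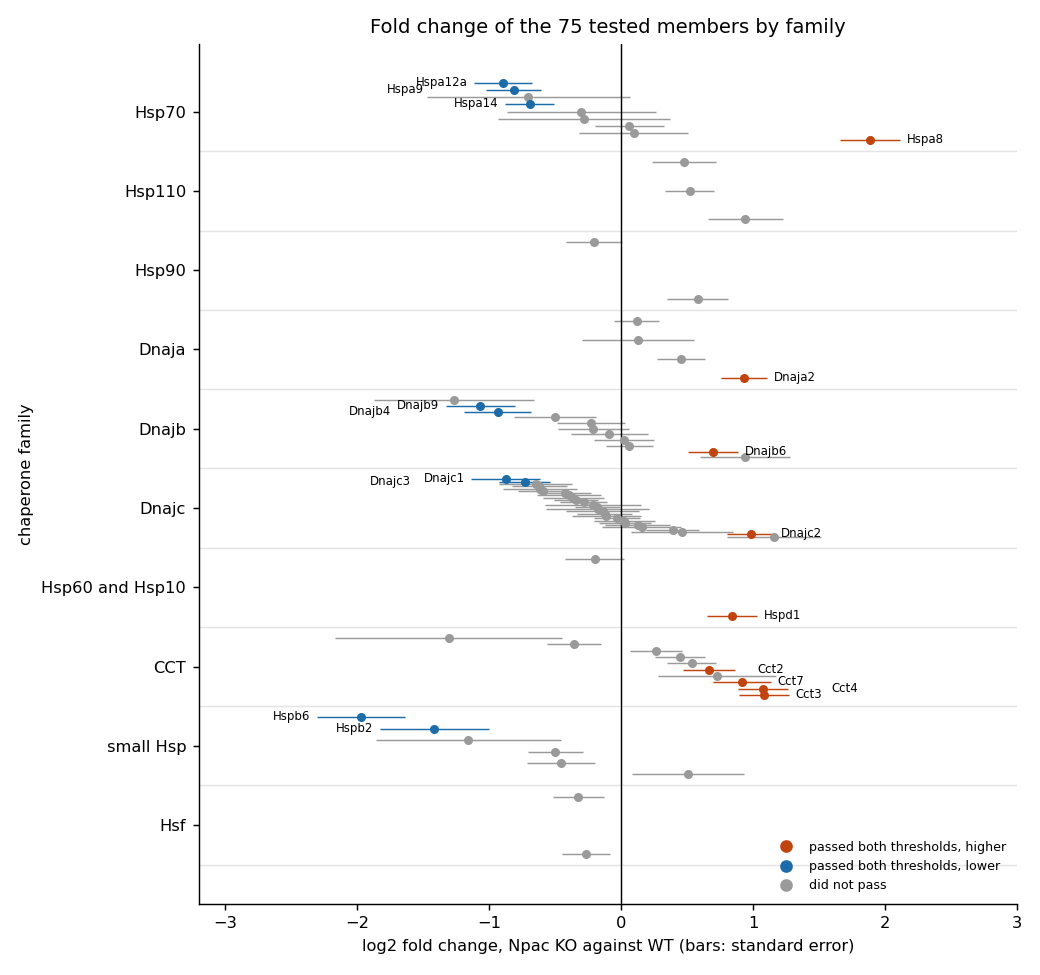
Log2 fold change of Npac KO against WT for the 75 tested members, 1 point per gene, grouped by family, with bars for the standard error of the fit. The 4 named points of the CCT family lie right of 0, the 2 named points of the small Hsp family lie left of it, and Hspa8 is the point farthest to the right.

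**Figure D2:**
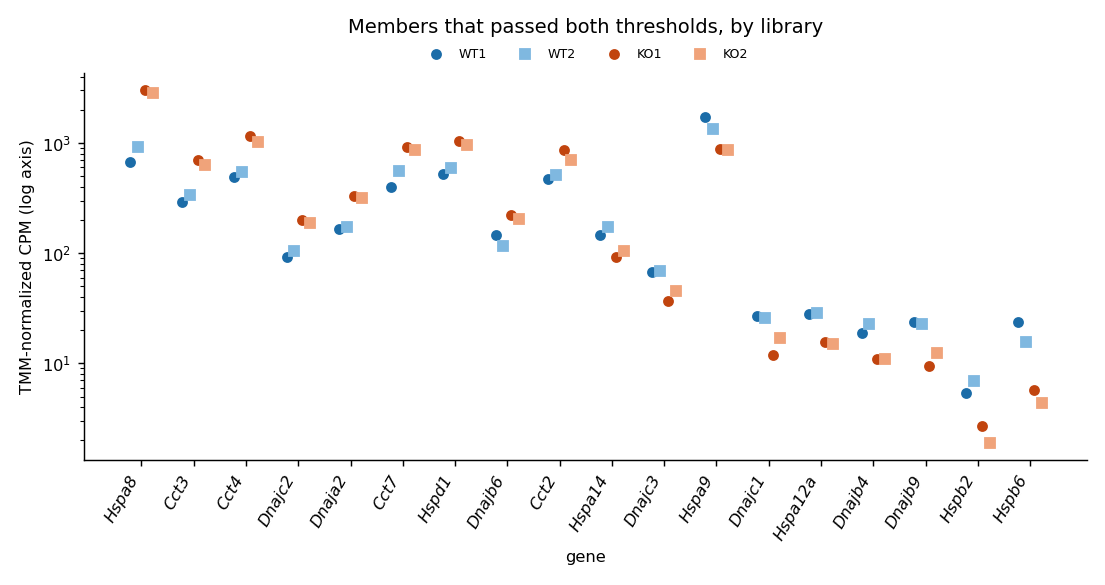
TMM-normalized CPM on a log axis for the 18 members that passed both thresholds, 1 point per library (circles for libraries numbered 1, squares for libraries numbered 2). For each of these genes both KO points lie on the same side of both WT points.

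In the Hsp70 family 1 of 9 tested genes was up-regulated and 3 were down-regulated, where 11.0% and 10.7% of all genes were called. Hspa8, which encodes Hsc70, the constitutive cytosolic Hsp70 that also uncoats clathrin vesicles, had 10178 and 16031 reads in WT1 and WT2, and 46566 and 49440 reads in KO1 and KO2. Both KO libraries stood well above both WT libraries. Normalized expression went from 792 ± 178 to 2926 ± 98.5 CPM (mean ± SD of counts scaled by library size, n = 2 each). This is a log2 fold change of 1.89 (SE, the standard error of the fit, 0.23, edgeR adjusted p = 0.00271). All adjusted p-values come from the quasi-likelihood test of edgeR and the Benjamini-Hochberg method, over all genes tested. Hspa8 (ENSMUSG00000015656) lies on chromosome 9 from 40712280 to 40721383 in the coordinates of the files, which are not those of the mm10 annotation used here.

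Some Hspa8 reads may not be separable from those of a nearly identical pseudogene, which was not tested on the reads themselves. Gm15459, a processed pseudogene on chromosome 5 whose transcript matches Hspa8 at 99.7% identity over its full length, had 8954 and 11990 reads in WT1 and WT2, and 806 and 905 reads in KO1 and KO2. Its share of the reads on the 2 genes together was 46.8% and 42.8% in WT cells and 1.70% and 1.80% in Npac KO cells. Gm15459 was down-regulated, with a log2 fold change of -3.61 (SE 0.20, edgeR adjusted p = 0.000124). Summed with all its matched pseudogenes, Hspa8 had 19170, 28083, 47444 and 50433 reads in WT1, WT2, KO1 and KO2. The sum rose with a log2 fold change of 1.06 (SE 0.21, edgeR adjusted p = 0.0135), a 2.08-fold difference in place of 3.69-fold, which is no longer the largest among the up-regulated members. Over the alternatives that kept all 4 libraries the adjusted p of Hspa8 ranged from 8.95e-19 to 0.0135. For the other 10 members with a matched pseudogene, the pseudogenes gave at most 8.36% of the summed reads in any library.

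**Figure D3:**
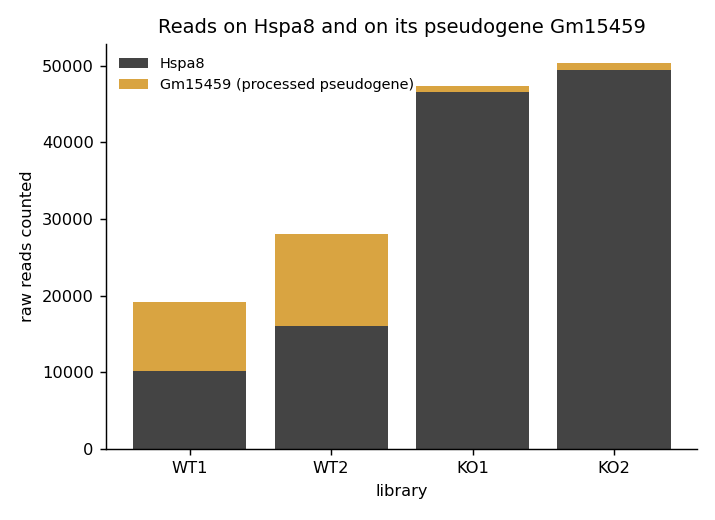
Raw reads counted on Hspa8 (dark) and on its processed pseudogene Gm15459 (yellow) in each library, stacked from 0. The yellow part is 46.8% and 42.8% of the bar in WT1 and WT2 and under 2% in KO1 and KO2, while the whole bar is higher in both KO libraries.

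Hspa9 encodes mortalin, the Hsp70 of the mitochondrial matrix that also pulls precursors through the inner membrane. It had 26507 and 23350 reads in WT1 and WT2, and 13835 and 14860 reads in KO1 and KO2, so the KO libraries lay below both WT libraries. Normalized expression fell from 1536 ± 282 to 874 ± 22.3 CPM (SD, n = 2 each), a log2 fold change of -0.81 (SE 0.21, edgeR adjusted p = 0.0302). With the median shift of each chromosome removed the adjusted p was 0.0503, within a range of 0.000829 to 0.0503 over the alternatives with all libraries. Per length, the FPKM of Hspa8 was 0.385 and 0.688 times that of Hspa9 in WT1 and WT2, and 3.37 and 3.33 times in KO1 and KO2. With the FPKM of Gm15459 added to that of Hspa8, the sum was 1.13 and 1.83 times Hspa9 in WT1 and WT2. It was 3.50 and 3.47 times Hspa9 in KO1 and KO2. This sum joins unlike lengths, 1941 bases for Gm15459 and 4301 for Hspa8, against 4310 for Hspa9. In reads, Hspa8 with all its matched pseudogenes had 19170 in WT1, under the 26507 of Hspa9. The summed reads were above those of Hspa9 in WT2 (28083 against 23350), KO1 (47444 against 13835) and KO2 (50433 against 14860).

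Hspa14, a ribosome-associated atypical Hsp70, had 2229, 3046, 1443 and 1820 reads in WT1, WT2, KO1 and KO2 and a log2 fold change of -0.69 (SE 0.19, edgeR adjusted p = 0.0362). It overlaps Gm45902 on the same strand, which had between 77 and 201 reads, and its call was lost without WT2. Hspa12a, a distant Hsp70 relative, had 432, 505, 244 and 261 reads and a log2 fold change of -0.89 (SE 0.22, edgeR adjusted p = 0.0265). Both genes were lower in each KO library than in each WT library, and the call of Hspa12a was lost on FPKM. Hspa2, Hspa12b and Hspa13, a microsomal Hsp70, had log2 fold changes of 0.10, -0.30 and 0.06 with overlapping groups.

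The stress-inducible pair Hspa1a and Hspa1b did not pass the test. These neighbouring genes on chromosome 17 encode nearly identical proteins, so reads may be split between them. Hspa1a had 35 and 201 reads in WT1 and WT2, and 32 and 111 reads in KO1 and KO2, and Hspa1b had 124, 537, 125 and 415. The libraries of each genotype differed several-fold, with WT2 and KO2 high and WT1 and KO1 low. The log2 fold changes were -0.70 (SE 0.77, edgeR adjusted p = 0.546) and -0.28 (SE 0.65, edgeR adjusted p = 0.788), and that of the summed pair was -0.38 (edgeR adjusted p = 0.715). For Hspa1b the sign depended on 1 WT library, since the log2 fold change was 0.98 without WT2 and -0.96 without WT1, and each passed both thresholds. For Hspa1a it was 0.89 without WT2, which did not pass, and -1.46 without WT1, which did. With all 4 libraries no difference between the genotypes was detectable for this pair at this spread.

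The 3 Hsp110 genes encode exchange factors of Hsp70. All 3 lay in both KO libraries above both WT libraries, as did 33.2% of all genes, and none passed the test. Hsph1 had 1024 and 2166 reads in WT1 and WT2, and 2714 and 3324 reads in KO1 and KO2, with a log2 fold change of 0.94 (SE 0.28, edgeR adjusted p = 0.051). It passed with DESeq2 and without the filter on low counts. Its log2 fold change was 1.45 without WT2, where it passed, and 0.54 without WT1, where it did not. Hspa4 (10766, 11890, 16148 and 16357 reads) had a log2 fold change of 0.52 (SE 0.18, edgeR adjusted p = 0.0803), but it lies on chromosome 11 and the value was 0.02 with the median of each chromosome removed. Hspa4l had a log2 fold change of 0.47.

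The Hsp90 genes had the highest mean FPKM of all members in both genotypes. Hsp90aa1, the stress-responsive isoform, had 83493, 75586, 67833 and 71444 reads in WT1, WT2, KO1 and KO2 and a log2 fold change of -0.21 (SE 0.21, edgeR adjusted p = 0.525). Hsp90ab1, the constitutive isoform, had 62028, 52432, 88700 and 83690 reads and a log2 fold change of 0.58 (SE 0.23, edgeR adjusted p = 0.113). Neither passed the test, although Hsp90ab1 passed without the filter on low counts and without WT1. The FPKM of Hsp90ab1 relative to Hsp90aa1 was 0.974 and 0.909 in WT1 and WT2 and 1.71 and 1.54 in KO1 and KO2, so the constitutive isoform was the higher of the pair in both KO libraries and the lower in both WT libraries.

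In the CCT family 4 of 10 tested genes rose and 0 fell past both thresholds, where 11.0% and 10.7% of all genes were called. The 8 ring subunits had a median log2 fold change of 0.60, and 7 of the 8 were higher in both KO libraries than in both WT libraries, as were 33.2% of all genes. Cct3 had 4447, 5949, 10943 and 10939 reads in WT1, WT2, KO1 and KO2, and its normalized expression rose from 316 ± 34.9 to 668 ± 50.9 CPM (SD, n = 2 each), a log2 fold change of 1.08 (SE 0.19, edgeR adjusted p = 0.00919). Cct4 had 7536, 9535, 17964 and 17854 reads and a log2 fold change of 1.07 (SE 0.19, edgeR adjusted p = 0.00919). It lies on chromosome 11, and with the chromosome medians removed the value was 0.57 and the call was lost. Cct7 had 6035, 9640, 14336 and 14891 reads and a log2 fold change of 0.91 (SE 0.22, edgeR adjusted p = 0.0245). Cct7 overlaps Pradc1 on the opposite strand, which had between 197 and 341 reads. Cct2 had 7167, 8923, 13333 and 12088 reads and a log2 fold change of 0.67 (SE 0.20, edgeR adjusted p = 0.0467), close to the threshold. The call of Cct2 was lost without WT1, on protein-coding genes alone and on FPKM.

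Of the other ring subunits, Tcp1, Cct6a and Cct8 had log2 fold changes of 0.53, 0.44 and 0.26, with edgeR adjusted p-values of 0.0769, 0.125 and 0.373. Cct5 lay the other way. It had 10979, 16146, 10404 and 10631 reads in WT1, WT2, KO1 and KO2, with both KO libraries lower after normalization and a log2 fold change of -0.36 (SE 0.20, edgeR adjusted p = 0.24). Each ring holds 1 copy of every subunit, and the subunits were more even in FPKM in Npac KO cells. FPKM divide by gene lengths from 2557 bases (Cct2) to 6778 bases (Cct7), so the order and spread of the subunits depend on these lengths. In FPKM, the highest subunit was 5.69 and 6.25 times the lowest in WT1 and WT2, and 3.04 and 2.83 times the lowest in KO1 and KO2. Cct5 had the highest FPKM in both WT libraries and Cct2 in both KO libraries. In CPM, which do not divide by length, Cct5 was again the highest in WT1 and WT2 (719 and 924). In KO1 and KO2 the highest in CPM was Cct4 (1156 and 1032), above Cct2 (858 and 698). The lowest in CPM was Cct3 in WT1 and WT2 (291 and 340) and Tcp1 in KO1 and KO2 (577 and 486). The share of Cct5 in the summed FPKM of the 8 subunits was 24.7% and 26.9% in WT1 and WT2 and 14.5% and 15.1% in KO1 and KO2. Cct6b, a testis form of the sixth subunit, and Cct8l1 were at low counts (37 to 105 and 7 to 41 reads) and did not pass the test, although Cct8l1 passed without WT2 (log2 fold change -2.12) and had 0.57 without WT1.

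**Figure D4:**
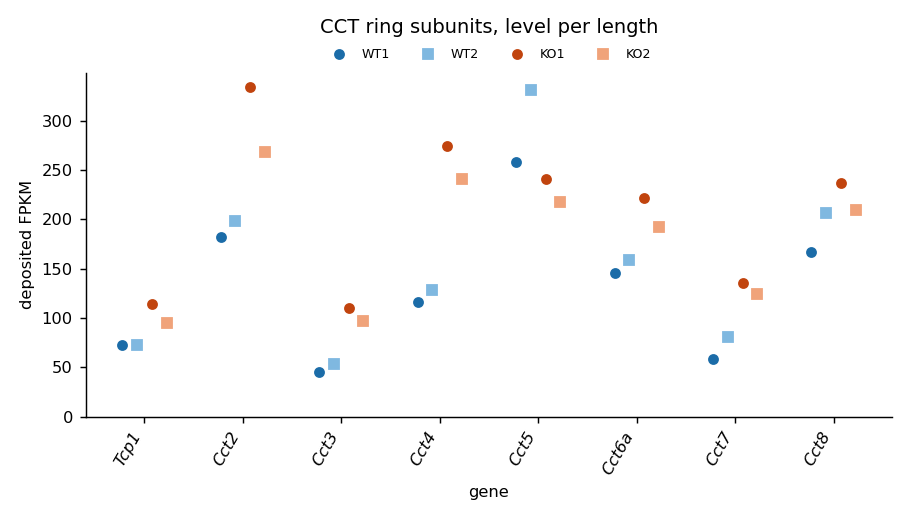
Deposited FPKM of the 8 CCT ring subunits, 1 point per library, on a linear axis from 0. Cct5 is the highest subunit in WT1 and WT2 and the subunit whose KO points lie below the WT points, while the other 7 subunits lie higher in both KO libraries.

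Genes for proteins that work beside CCT were counted in a separate list of 11 prefoldin subunits and CCT partners, of which 3 were up-regulated and 1 was down-regulated (11.0% and 10.7% of all genes), with a median log2 fold change of 0.26. Vbp1 and Pfdn5, subunits of prefoldin, which hands unfolded actin and tubulin to CCT, had log2 fold changes of 1.07 and 0.74. Pdcl, a phosducin-like cofactor that assists CCT with G protein subunits, had 0.63. Bbs12, a chaperonin-like protein of the Bardet-Biedl complex, had 215, 204, 54 and 88 reads in WT1, WT2, KO1 and KO2 and fell by 1.58 on the log2 scale.

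Of the mitochondrial pair Hspd1 and Hspe1, Hspd1 passed the test. Hspd1, the Hsp60 barrel, had 8025 and 10342 reads in WT1 and WT2, and 16296 and 16453 reads in KO1 and KO2. Hspe1, the Hsp10 lid, had 4323, 7163, 4893 and 4984 reads, with overlapping groups. Hspd1 was up-regulated with a log2 fold change of 0.84 (SE 0.19, edgeR adjusted p = 0.0197), while that of Hspe1 was -0.20 (SE 0.22, edgeR adjusted p = 0.548). The difference between the genes was not tested. In FPKM, Hspd1 was 1.04 and 0.806 times Hspe1 in WT1 and WT2 and 1.86 and 1.84 times in KO1 and KO2. The genes overlap head to head on opposite strands, and it is not given in the sources used here whether the counting used strand. Among 12 further mitochondrial partners, 3 were up-regulated and 0 were down-regulated, against 11.0% and 10.7% of all genes. These were Timm44 (log2 fold change 0.98), which anchors Hspa9 to the import channel, the matrix protease subunit Clpp (0.91) and the disaggregase Clpb (0.72). Timm44 lies on chromosome 8. None of the 6 mitochondrial J proteins passed the test, and their log2 fold changes lay between -0.40 and 0.46.

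The J proteins form the largest family, with 41 of 43 genes tested, of which 3 were up-regulated and 4 were down-regulated, no larger a share than the 11.0% and 10.7% of all genes. Dnaja2, a cytosolic partner of Hsc70, had 2540, 3010, 5122 and 5468 reads in WT1, WT2, KO1 and KO2 and a log2 fold change of 0.93 (SE 0.17, edgeR adjusted p = 0.0109). It lies on chromosome 8, and the value was 0.41 and the call lost with the chromosome medians removed. Dnaja1, its close relative, had a log2 fold change of 0.45 (edgeR adjusted p = 0.115), and the mitochondrial Dnaja3 had 0.12. Dnajc2, a ribosome-associated J protein that is also known at chromatin, had 1414, 1820, 3116 and 3249 reads and a log2 fold change of 0.98 (SE 0.18, edgeR adjusted p = 0.00986). Dnajb6, which suppresses aggregation of polyglutamine proteins, had 2213, 2051, 3427 and 3539 reads and a log2 fold change of 0.70 (SE 0.19, edgeR adjusted p = 0.0369). All 3 up-regulated J proteins were higher in each KO library than in each WT library, and the call of Dnajb6 was lost without WT2.

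Of the 10 J proteins of the endoplasmic reticulum, 3 were down-regulated and 0 were up-regulated, against 10.7% and 11.0% of all genes, with a median log2 fold change of -0.29. Dnajb9 (ERdj4), which takes misfolded proteins towards degradation, had 361, 395, 148 and 217 reads in WT1, WT2, KO1 and KO2 and a log2 fold change of -1.07 (SE 0.26, edgeR adjusted p = 0.0258). Dnajc3 (p58IPK), a luminal cochaperone, had 1040, 1200, 577 and 783 reads and a log2 fold change of -0.73 (SE 0.19, edgeR adjusted p = 0.0331). Dnajc1 (ERdj1), a membrane J protein at the translocon, had 414, 448, 184 and 292 reads and a log2 fold change of -0.88 (SE 0.26, edgeR adjusted p = 0.0479). Dnajc1 overlaps Mllt10 on the opposite strand, which had 1743, 1171, 762 and 886 reads. With the chromosome medians removed Dnajc1 and Dnajc3 lost their call at log2 fold changes of -0.84 and -0.61, and Dnajc1 also lost it on FPKM, with upper-quartile normalization and with at least 10 counts in every library. Dnajb11, the most studied luminal partner of BiP, was at 67.8 ± 4.40 and 70.6 ± 3.29 CPM (SD, n = 2 each) with overlapping groups.

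Dnajb4, a cytosolic J protein close to Dnajb1, had 288, 399, 170 and 188 reads in WT1, WT2, KO1 and KO2 and a log2 fold change of -0.94 (SE 0.25, edgeR adjusted p = 0.0375), a call lost with the chromosome medians removed and on FPKM. Dnajb1 itself, the heat-inducible Hsp40, had 743, 1529, 873 and 1244 reads, so the groups overlapped, with a log2 fold change of -0.09 (edgeR adjusted p = 0.851). Dnajb1 lies on chromosome 8, and with the chromosome medians removed the value was -0.61 (edgeR adjusted p = 0.176), which did not pass either. Dnajc6 (auxilin), which recruits Hsc70 to clathrin coats, had 316, 209, 723 and 454 reads and a log2 fold change of 1.16 that missed the threshold (SE 0.36, edgeR adjusted p = 0.0548). It passed with DESeq2, with upper-quartile normalization and without the filter on low counts, and it passed without WT1, without WT2 and without KO2. Without KO1 its log2 fold change was 0.68, so its size rests partly on KO1. Dnajb13, a sperm axoneme protein, and Dnajb3 were at 64 to 162 and 10 to 52 reads, with log2 fold changes of 0.94 and -1.27 that did not pass the test, although Dnajb13 passed without WT2 and Dnajb3 without WT1. The other J proteins had log2 fold changes between -0.65 and 0.46.

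Of the 6 tested small heat shock proteins, 2 were down-regulated and 0 were up-regulated, where 10.7% and 11.0% of all genes were called. Hspb6 (Hsp20), best known from muscle, had 362 and 276 reads in WT1 and WT2, and 89 and 75 reads in KO1 and KO2. Its normalized expression fell from 19.8 ± 5.59 to 5.03 ± 0.985 CPM (SD, n = 2 each), a log2 fold change of -1.97 (SE 0.34, edgeR adjusted p = 0.00825) and the largest fall among the members. Hspb2, another muscle member, had 83, 120, 42 and 33 reads and a log2 fold change of -1.42 (SE 0.41, edgeR adjusted p = 0.0461), a call lost with upper-quartile normalization and with the chromosome medians removed. Hspb6 overlaps Lin37 and Proser3 on the opposite strand, with 219 to 320 and 106 to 253 reads. Hspb2 overlaps Cryab on the opposite strand, which had 45, 88, 31 and 30 reads.

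Hspb1 (Hsp27), the abundant member of this family, had 8402 and 5798 reads in WT1 and WT2, and 5224 and 5299 reads in KO1 and KO2. WT1 stood apart from the other 3 libraries, and the log2 fold change of -0.46 (SE 0.26, edgeR adjusted p = 0.231) was -0.78 without WT2, where it passed, and -0.07 without WT1. Hspb8, a partner of Bag3 in selective autophagy, had a log2 fold change of -0.50 (edgeR adjusted p = 0.12). Hspb7 (10 to 36 reads) and Hspb11, a component of ciliary transport, did not pass the test, and Hspb7 had a log2 fold change of -1.80, past the thresholds, without WT2 and -0.06 without WT1.

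The heat shock factors Hsf1 and Hsf2 did not pass the test. Hsf1 had 885, 1090, 672 and 912 reads in WT1, WT2, KO1 and KO2 and a log2 fold change of -0.33 (SE 0.19, edgeR adjusted p = 0.256), and Hsf2, which pairs with Hsf1 and is active in early development, had 970, 996, 752 and 898 reads and a log2 fold change of -0.27 (SE 0.18, edgeR adjusted p = 0.329). Both were lower after normalization in each KO library than in each WT library, as were 32.5% of all genes, without passing the test. Of the 4 related genes Hsf3, Hsf4, Hsf5 and Hsbp1, Hsf3 was down-regulated, at 17, 45, 1 and 6 reads.

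Known heat-inducible targets of Hsf1 were taken as a list of 20 genes, 12 of them members. Of these 20, 4 were up-regulated (among them Hspa8, Hspd1 and the Hsp90 immunophilin Fkbp4) and 1 was down-regulated (Chordc1, an Hsp90 partner), against 11.0% and 10.7% of all genes, with a median log2 fold change of 0.41. The KO libraries both exceeded the WT libraries in 11 of the 20 and fell under them in 1, where 33.2% and 32.5% of all genes did so. Hsph1 missed the threshold with a log2 fold change of 0.94 (edgeR adjusted p = 0.051). Hspa1a, Hspa1b and Dnajb1 had overlapping groups and did not pass the test, with SEs of 0.77, 0.65 and 0.29, so a change in them could be missed. For these 3 and for Hsph1 the libraries numbered 2 were higher than those numbered 1 within both genotypes, by 1.80-fold to 4.97-fold in WT cells and 1.10-fold to 3.08-fold in Npac KO cells. This was not general, since 6 of the 20 genes (30%) and 30.5% of all genes tested were higher in both libraries numbered 2.

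**Figure D5:**
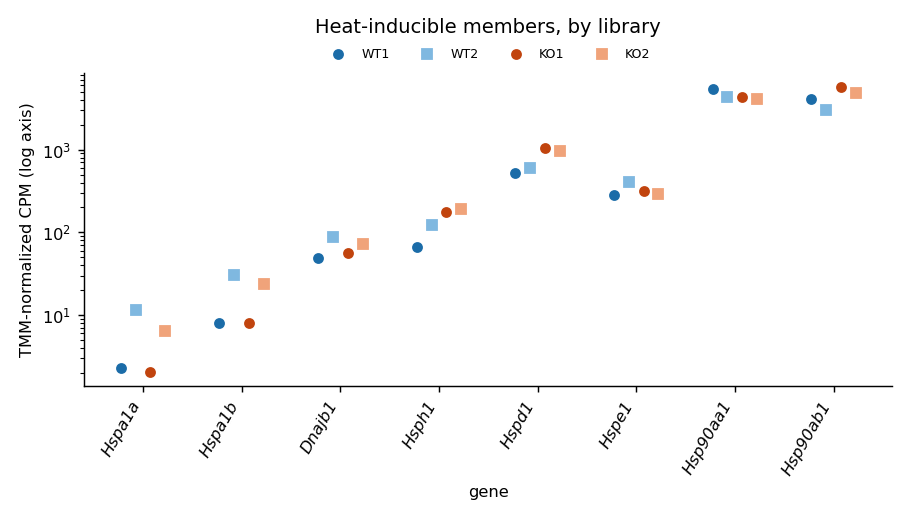
TMM-normalized CPM on a log axis of 8 heat-inducible members, 1 point per library (circles for libraries numbered 1, squares for libraries numbered 2). For Hspa1a, Hspa1b and Dnajb1 the squares lie above the circles in both genotypes, whereas for Hspd1 and Hsp90ab1 both KO points lie above both WT points.

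Cochaperones of Hsp70 and Hsp90 were counted in a further list of 22 partners, of which 4 were up-regulated and 3 were down-regulated, against 11.0% and 10.7% of all genes, with a median log2 fold change of 0.16. The rises were Ahsa2 (log2 fold change 1.35), a relative of the Hsp90 activator Ahsa1, Tomm34 (1.01), which links both chaperones to mitochondrial import, the exchange factor Bag4 (0.92) and Fkbp4 (0.68). Ahsa2 lies on chromosome 11 and Bag4 on chromosome 8. The falls were Chordc1 (-0.89), the ubiquitin ligase Stub1 (-0.86), which marks chaperone clients for degradation, and Sugt1 (-0.61), an Hsp90 adaptor of the kinetochore.

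Promoter windows from 250 bases before to 50 bases after the start were taken from RefSeq on GRCm38.p6, and 65 of the 80 members had an entry. Heat shock elements are built from 3-base units in alternating orientation, so windows were searched for a facing pair of units, GAANNTTC or TTCNNGAA, each of which reads the same on both strands. A pair was found in 19 of the 65 members (29.2%), against 17.0% of 27025 genes. By result, 3 of 6 up-regulated, 2 of 7 down-regulated and 13 of 47 uncalled members with an entry had it. At least 3 units in a row, in which 2 pairs overlap, were found in 4 members (6.15%, against 0.66% of all genes), namely Hspd1, Hspe1, Dnajb6 and Hsph1. Hspa8, Hspa9, Hsp90aa1, Hsp90ab1, Cct4, Dnajc2 and Hspb2 are among the 15 members without an entry. A match describes letters and not binding.

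These promoter stretches set up-regulated members beside uncalled and down-regulated ones that hold a pair of units, alone or in a longer run. Capitals mark the matched units, and each stretch is written on the strand of its gene, the first on that of Hspe1. Of the 2 starts listed for Hspd1, the one whose window holds a pair was used, and the window of the other held none. Between this start and that of Hspe1 lie 215 bases. The first stretch, between them, lies before this start of the up-regulated Hspd1 and before the start of the uncalled Hspe1. The Hspa1b stretch is identical in Hspa1a, whose whole window matches at 296 of 300 bases.
Hspe1 and Hspd1, chr1:55088038-55088097 (+ strand): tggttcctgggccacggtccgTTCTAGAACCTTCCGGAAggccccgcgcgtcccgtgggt
Dnajb6, chr5:29735828-29735887 (+ strand): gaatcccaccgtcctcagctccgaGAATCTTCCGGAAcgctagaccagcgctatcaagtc
Cct2, chr10:117063384-117063443 (- strand): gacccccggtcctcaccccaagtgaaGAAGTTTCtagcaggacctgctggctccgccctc
Hspa1b, chr17:34959309-34959368 (- strand): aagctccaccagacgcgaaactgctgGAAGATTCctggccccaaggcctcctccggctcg
Hspb6, chr7:30553155-30553214 (+ strand): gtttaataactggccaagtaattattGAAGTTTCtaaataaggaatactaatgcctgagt
The up-regulated Hspd1 and the uncalled Hspe1 share 1 run of units, and the up-regulated Dnajb6 has a run of 3. The up-regulated Cct2, the uncalled Hspa1b and the down-regulated Hspb6 each have a single pair by exact match. Runs with an imperfect unit were not searched for, so a stretch with a single exact pair may hold a longer element. A single pair was found in 17.0% of all genes and at least 3 units in a row in 0.66%, so these are unlike kinds of match. Whether any of these elements bears on the level of its gene was not tested.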

How the data were processed

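RNA-seq was analysed in 2 WT and 2 Npac KO libraries of E14 cells. The authors deposited raw read counts per gene, and FPKM values, which divide those counts by gene length and by a scaled library size. The submitters' processing notes name HISAT2 2.0.5, featureCounts 1.5.0-p3 and mm10. Start and end were identical for 1472 of 52073 gene IDs shared with GENCODE M21 (mm10), so coordinates of genes are given as in the files, apart from promoters, which are RefSeq on GRCm38.p6. Counting of strand and of multiply mapped reads is not given in the sources used here.

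Counts were tested in R 4.3.3 with edgeR 4.0.16 (TMM, filterByExpr, quasi-likelihood test, genotype only) over 18157 genes, with a common biological coefficient of variation of 0.235. The thresholds for a call were 0.05 on the Benjamini-Hochberg adjusted p and 1.5 on the fold change. CPM are TMM-normalized, and levels of different genes were compared in FPKM, or in reads or CPM where these are named. Pseudogenes with reads were matched to members by blastn 2.17.0+ on GENCODE transcripts at 90% identity over 60% of their length. Alternatives used DESeq2 1.42.0, limma 3.58.1 on log2(FPKM + 0.1), other filters and scalings, a replicate block, sums with pseudogenes, removal of chromosome medians, and leaving out each library, where a lone library was assumed to vary like the others. The test was checked on simulated counts, where it recovered 66% of 4-fold and 16% of 2-fold changes, with 3.5% false calls. A member that did not pass may therefore still differ. Floors of 3 reads cover counting error only.

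The members and lists were chosen with earlier results of these data known. Named genes are 26 core members, every other member past both thresholds, the 5 uncalled members with the largest fold change, and list genes past both thresholds. Some list genes that were tested are not reported here by name.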

Additional observations from a re-analysis of the deposited data

How the results depend on the processing

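With 2 libraries per genotype the counts rest on each library. Leaving out each in turn gave 3 to 15 up-regulated and 1 to 16 down-regulated members and a median log2 fold change of -0.123 to 0.0367, where the lowest counts came without KO1 (3 and 1) and without KO2 (4 and 1) and the highest without WT2 (15 and 16), and without WT1 there were 10 and 15. Hspa1b ranged from -1.26 without KO2 to 0.98 without WT2, against -0.28 with all libraries (without WT2, edgeR adjusted p = 0.0185, and 0.0226 to 0.802 without each other library). With the chromosome medians removed, 8 members were up-regulated and 4 were down-regulated, and 7 of the 18 calls were lost, while Tcp1 was gained. Of the lost calls, Cct4 went from 1.07 to 0.57 and Dnaja2 from 0.93 to 0.41. The others lie on chromosomes with medians between -0.20 and -0.04 in KO1 and KO2, which were removed too. Their log2 fold changes moved towards 0. Hspa9 went from -0.81 to -0.70, Dnajb4 from -0.94 to -0.82 and Dnajc1 from -0.88 to -0.84. Dnajc3 went from -0.73 to -0.61 and Hspb2 from -1.42 to -1.22. The cause of the loss of these calls was not tested. The other settings gave 8 to 12 up-regulated and 6 to 11 down-regulated members. The replicate numbers are not tied to a batch in the labels, and the differences between libraries 2 and 1 correlated at 0.31 between genotypes across 18157 genes, which are not independent. With the replicate block, 12 members were up-regulated and 10 were down-regulated, all 18 calls remained and Hsph1, Dnajc6 and Dnajb13 were added. Hspb2, Hspb7, Cct8l1 and Dnajb3 had between 7 and 120 reads per library, and how far depth limits them was not tested.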
